A study of Mus musculus with 16 samples.

Results

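The axon guidance ligands and receptors examined here were the semaphorins of classes 3 to 7 with their plexin and neuropilin receptors, the ephrins with the Eph receptors, the netrins with Dcc and the Unc5 receptors, and the Slits with the Robo receptors. The rule takes them by gene symbol from the protein-coding genes and uses no measured value. It gave 70 of 53465 genes in the count table, of which 22040 were protein coding. They comprised 20 semaphorins, 9 plexins, 2 neuropilins, 8 ephrins, 14 Eph receptors, 5 netrins, 5 netrin receptors, 3 Slits and 4 Robos.

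Guidance molecules steer growing axons in the embryo by attracting or repelling the growth cone. Secreted or membrane-bound ligands bind receptors on the axon, and the receptors act on the cytoskeleton through small GTPases and their regulators. In the adult nervous system many of these genes stay expressed, where they are known for roles in synapses, blood vessels, immune cells and axon regrowth. Sensory neurons of the dorsal root ganglion (DRG) depend on class 3 semaphorins, Slits and netrins for the paths of their axons into the spinal cord and the skin.

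Ribosome footprints (fragments of mRNA protected by ribosomes, a measure of translation) and poly(A) mRNA were sequenced from DRG of segments L3 to L5 and from the dorsal part of the lumbar spinal cord (SC). Female C57BL/6J mice had surgery on both sides at 8 weeks of age and tissue was taken 30 days later. In spared nerve injury (SNI) all branches of the sciatic nerve but the sural one were tied and cut, and in sham surgery the nerve was exposed and no branch was injured. Each of the 4 combinations of tissue and surgery had 2 pools of 10 mice, and each pool gave 1 mRNA and 1 footprint library, so that n = 2 pools in every group and 16 libraries in all. DRG of segments L3 to L5 hold cut and spared neurons together, and a pooled lysate cannot tell them apart, nor can fewer cells of a type be told apart from less RNA per cell.

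The 8 mRNA libraries held 18176471 to 28553113 reads in genes and the 8 footprint libraries 6898056 to 21613483. The guidance genes together took 0.2871% and 0.2873% of the reads in DRG mRNA after SNI, against 0.2705% and 0.2710% after sham, and 0.2971% and 0.2979% in SC mRNA after SNI, against 0.3019% and 0.3050% after sham. The tissues matched their labels, since 12 sensory neuron markers summed to 7795 to 8402 CPM (the reads of a gene scaled to a common library size) in DRG mRNA and to 711 to 784 CPM in SC mRNA, while 8 oligodendrocyte markers summed to 42.5 to 69.7 CPM in DRG and to 2601 to 2809 CPM in SC. All 10 injury-induced sensory neuron genes were called higher in DRG mRNA after SNI, with summed levels of 1363 and 1370 CPM after SNI and 589 and 599 CPM after sham. Other cell type markers also differed between the SNI and sham ganglia. Of the 12 sensory neuron markers 8 were called lower and 3 higher, and they summed to 7820 and 7795 CPM after SNI, against 8381 and 8402 CPM after sham. Of 12 skeletal muscle markers 11 were called higher, and they summed to 177 and 175 CPM in DRG mRNA after SNI, against 63.6 and 66.0 CPM after sham, and the 9 fibroblast and meninges markers (7 called higher) to 1855 and 1852 CPM, against 1678 and 1663 CPM. The 8 microglia and macrophage markers (5 called higher) summed to 137 and 135 CPM after SNI, against 99.2 and 96.1 CPM after sham, and the 10 endothelial markers (5 called higher) to 199.8 and 205 CPM, against 182 and 182 CPM. Markers of the spinal cord moved the other way, with oligodendrocyte markers (4 of 5 tested called lower) at 44.4 and 42.5 CPM after SNI, against 69.7 and 68.7 CPM after sham, and 8 spinal cord neuron markers (4 of 6 tested called lower) at 17.2 and 16.6 CPM, against 28.7 and 25.4 CPM. The 7 astrocyte markers (5 called lower, 1 higher) summed to 87.6 and 83.1 CPM, against 126 and 124 CPM. Schwann and satellite glia markers (3384 and 3387 CPM, against 3478 and 3469 CPM) and motor neuron markers (11.6 and 12.3 CPM, against 12.7 and 13.2 CPM) differed less. No marker of these lists was at 0 in a DRG mRNA library, and the part of these shifts in the results on guidance genes was not tested.

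Levels were first compared in the sham pools, as CPM divided by the length of a gene's exons in kilobases (RPKM). Among the semaphorins, Sema7a, a membrane-anchored ligand of integrins and of plexin C1, had the highest mRNA level in both tissues, with 34.3 and 34.4 RPKM in sham DRG and 44.3 and 44.3 RPKM in sham SC. In the DRG it was followed by Sema4f with 24.1 and 25.2 RPKM and Sema3b with 18.8 and 19.7 RPKM, and the pools of these 3 genes did not overlap. In the SC the next semaphorin was Sema6b, a ligand of class A plexins, with 27.2 and 27.1 RPKM, against 2.43 and 2.70 RPKM in sham DRG. Sema3a, the classic repellent of sensory axons, was close to absent from the ganglion, with 15 mRNA reads in each sham DRG pool (0.055 and 0.061 RPKM), against 1.55 and 1.48 RPKM in sham SC.

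Of the plexins, the receptors of semaphorins, different members led in the tissues. Plxnc1, the receptor of Sema7a, was the highest plexin in the DRG with 31.4 and 31.1 RPKM, against 2.54 and 2.65 RPKM in sham SC. Plxnd1, the receptor of Sema3e, had 19.5 and 19.9 RPKM in sham DRG and 1.17 and 1.16 RPKM in sham SC. Plxnb1, a receptor of class 4 semaphorins, was the highest plexin in the SC with 12.4 and 12.6 RPKM, against 2.39 and 2.38 RPKM in sham DRG. Nrp2, the higher neuropilin in either tissue and a co-receptor for class 3 semaphorins, had 8.71 and 8.51 RPKM in sham DRG and 3.82 and 3.84 RPKM in sham SC.

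Ephrins were unequal between the tissues in both directions. Efna1 led in the DRG with 20.8 and 20.4 RPKM, against 2.52 and 2.97 RPKM in sham SC, and the pools of Efna5 lay just below it in the DRG, at 19.4 and 19.8 RPKM. Efnb3, a transmembrane ephrin known as a midline barrier to corticospinal axons, had the highest level of all 70 genes in the SC with 82.7 and 82.8 RPKM, against 3.002 and 2.87 RPKM in sham DRG. Ephb6, an Eph receptor without kinase activity, was the highest Eph receptor in either tissue, with 7.48 and 7.46 RPKM in sham DRG and 18.5 and 19.6 RPKM in sham SC.

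Most netrins were higher in the DRG and their receptors were higher in the SC. Ntng2, a membrane-anchored netrin, was the highest netrin of the DRG with 13.0 and 12.6 RPKM, against 4.31 and 3.98 RPKM in sham SC, where Ntng1 with 5.04 and 5.22 RPKM and Ntn1 with 4.93 and 5.13 RPKM overlapped at the top. Unc5a, a netrin receptor that mediates repulsion, was the highest netrin receptor in both tissues with 3.11 and 3.27 RPKM in sham DRG and 12.6 and 13.8 RPKM in sham SC. Dcc, the receptor for attraction to netrin 1, had 10 and 15 mRNA reads in the sham DRG pools, against 182 and 129 reads in the sham SC pools. Slit1 was the highest Slit in both tissues, with 12.2 and 11.4 RPKM in sham DRG and 7.61 and 7.39 RPKM in sham SC. Its receptors ran in opposite directions, since Robo2 had 9.14 and 8.90 RPKM in sham DRG and 4.35 and 4.35 RPKM in sham SC, while Robo1 had 2.54 and 2.69 RPKM in sham DRG and 7.82 and 7.90 RPKM in sham SC. The RPKM of a gene depends on the exons annotated for it, and genes with long annotated exons such as Slit2 (25433 bases) come out low on this scale.

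**Figure D1:**
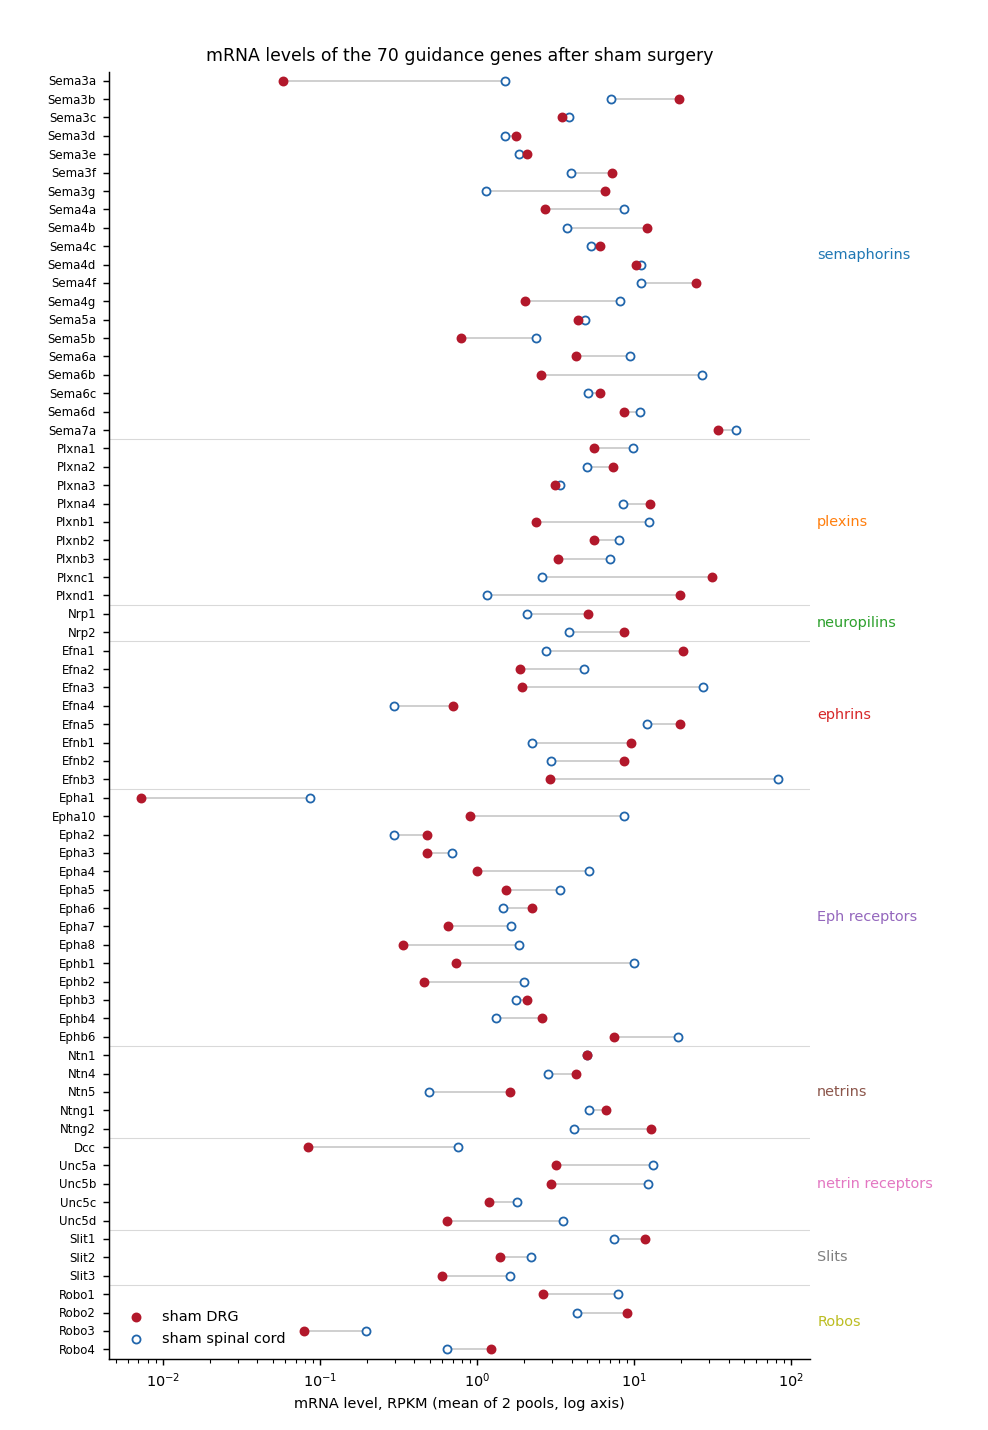
mRNA level of each of the 70 genes in sham DRG (filled red) and sham spinal cord (open blue), as the mean RPKM of 2 pools on a log axis, with the genes grouped by family down the page. Grey lines join the tissues. Among genes higher in the spinal cord Efnb3 and Sema3a have the longest, and among those higher in the DRG Plxnd1 and Plxnc1.

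Between sham DRG and sham SC, 65 of the 67 genes with enough reads were called different in mRNA (edgeR, Benjamini-Hochberg adjusted p under 0.05), with 30 higher and 35 lower in the DRG. The background was high, since 83.7% of all 14706 genes tested were called, 41.4% higher and 42.3% lower. The guidance genes differed by more than 1.5-fold in 50 cases of 67, against 48.6% of all genes, and their median absolute log2 difference was 1.18, against 0.56 for all genes. Plxnd1 (log2 difference 4.09 ± 0.05, standard error (SE), adjusted p = 4.0e-42), Plxnc1 (3.61 ± 0.04, adjusted p = 4.15e-45) and Efna1 (2.93 ± 0.08, adjusted p = 1.0e-29) were the furthest toward the DRG. Toward the SC stood Efnb3 (-4.80 ± 0.05, adjusted p = 3.0e-46), Sema3a (-4.69 ± 0.15, adjusted p = 9.0e-28), Efna3 (-3.82 ± 0.08, adjusted p = 2.35e-35) and Ephb1 (-3.73 ± 0.08, adjusted p = 6.8e-35). Sema3a passed the read minimum through the SC alone, with 15 and 15 reads in the sham DRG pools, against 593 and 469 in the sham SC pools. By family, 9 of 13 Eph receptors and all 5 netrin receptors were called lower in the DRG, and both neuropilins and 4 of 5 netrins were called higher. These counts include Dcc, Epha3 and Epha8, which passed the read minimum through the SC alone, and Ntn5, which passed it through the DRG alone. In sham DRG Dcc had 10 and 15 reads, Epha3 55 and 46, Epha8 29 and 30 and Ntn5 75 and 60. In sham SC Dcc had 182 and 129 reads, Epha3 115 and 85, Epha8 248 and 191 and Ntn5 28 and 27. The plexins divided evenly, with 4 higher, 4 lower and Plxna3 not called.

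The response to injury was then examined within the DRG. SNI changed the mRNA of 38 of the 65 guidance genes tested, 23 higher and 15 lower, while 32.9% of all 14494 genes were called, 15.9% higher and 17.0% lower. Most of these changes were small. Beyond 1.5-fold stood 2 of the 38, Sema6a and Efnb3, which is 2 of 65 genes tested beside 2.42% of all genes. The median absolute log2 change of the guidance genes was 0.19 and that of all genes 0.11, while the median signed change was 0.01 for the guidance genes and 0.00 for all genes. In 53 of the 65 genes both SNI pools lay on the same side of both sham pools (29 above, 24 below), a pattern held by 64.5% of all genes. The other 5 guidance genes, Dcc, Efna4, Epha1, Robo3 and Sema3a, had too few reads over the 4 libraries to be tested. With library sizes alone in place of TMM factors (the trimmed mean of M-values, a scaling of the libraries), 33 genes were called, 24 higher and 9 lower.

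The 2 pools of a group differed by little more than counting noise in DRG mRNA, with a mean chi-square per gene of 1.07 in SNI and 1.06 in sham ganglia. The common biological coefficient of variation was estimated at 0.00988, the lowest value the estimate can take. With a coefficient of 0.1 set in its place, Sema6a and Efnb3 alone were called, and in a test against a 1.5-fold change Sema6a alone. DESeq2 called 15 genes. Calls of 19 genes were kept when each pool was left out in turn, and 15 of these were called by DESeq2 as well. These 15 were Sema6a, Sema4a, Sema4c, Sema4f, Plxna3, Plxna4, Plxnb2, Ephb6, Ntn1 and Slit1 among the genes that rose, and Sema7a, Plxna2, Efnb3, Ntng1 and Robo2 among those that fell.

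Sema6a, a transmembrane semaphorin that signals through plexins A2 and A4, had the largest change. Its mRNA was 93.0 and 91.2 CPM in DRG after SNI, against 35.1 and 38.3 CPM after sham. The groups were far apart, and the log2 fold change was 1.33 ± 0.04 (SE, adjusted p = 4.6e-25). Its footprints moved in parallel, with 87.1 and 81.4 CPM after SNI, against 33.8 and 31.7 CPM after sham (log2 fold change 1.37 ± 0.06, adjusted p = 5.9e-43). The call held in mRNA and in footprints under every alternative run. On the RPKM scale its mRNA in SNI ganglia (10.8 and 10.6 RPKM) lay above that of the sham spinal cord (9.47 and 9.30 RPKM), whereas the sham ganglia (4.07 and 4.44 RPKM) lay below it.

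The 4 class 4 semaphorins that rose in the mRNA were Sema4a, Sema4c, Sema4f and Sema4g, membrane ligands of the family that binds class B plexins and, for some members, immune receptors. Sema4f, on chromosome 6 (82911885 to 82939769, GRCm38), had 166 and 164 CPM after SNI, against 125 and 131 CPM after sham, a log2 fold change of 0.37 ± 0.03 (adjusted p = 3.1e-13). Sema4a reached 17.7 and 20.1 CPM after SNI, against 14.7 and 14.0 CPM after sham (0.38 ± 0.08, adjusted p = 0.00025). Sema4c reached 34.5 and 32.5 CPM after SNI, against 27.6 and 27.1 CPM after sham (0.30 ± 0.05, adjusted p = 3.1e-05). In these 3 genes the lowest SNI pool was above the highest sham pool. Sema4g had 11.3 and 11.8 CPM after SNI, against 10.03 and 9.30 CPM after sham (0.25 ± 0.10, adjusted p = 0.0495), and lost its call whichever of the 4 pools was left out (adjusted p up to 0.252). Sema4b and Sema4d were not called, at log2 changes of -0.06 and -0.01.

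Among the class 3 semaphorins, secreted ligands that act through neuropilins and class A plexins, Sema3c and Sema3b rose and Sema3f fell. Sema3c mRNA was 28.5 and 29.8 CPM after SNI, against 25.2 and 23.2 CPM after sham (0.26 ± 0.06, adjusted p = 0.00061), and Sema3b had 99.5 and 99.2 CPM, against 88.0 and 92.5 CPM (0.14 ± 0.03, adjusted p = 0.00057). Sema3f had 32.4 and 34.7 CPM after SNI, against 35.6 and 37.7 CPM after sham (-0.13 ± 0.05, adjusted p = 0.042), and this mRNA call was lost without sham replicate 2 or without SNI replicate 1 (adjusted p up to 0.402). Sema6c, a transmembrane class 6 member, rose by 0.16 on the log2 scale and was lost without sham replicate 2 (adjusted p = 0.0598). Sema7a was the other semaphorin that fell. It had 87.0 and 87.7 CPM after SNI, against 111 and 111 CPM after sham, a log2 fold change of -0.35 ± 0.03 (adjusted p = 9.8e-12), and in SNI ganglia its level of 26.9 and 27.1 RPKM was below that of Sema4f, at 32.0 and 31.6 RPKM.

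Of the 9 plexins, 7 were called higher, 1 lower and Plxnc1 not called (-0.04), and 3 of the 7 rises held without each pool. Plxna4, the receptor of Sema3a with neuropilin 1 and of Sema6a, had 197 and 196 CPM after SNI, against 172 and 178 CPM after sham (0.17 ± 0.03, adjusted p = 2.0e-06). Plxna3, on chromosome X (74329066 to 74344689), had 30.1 and 31.7 CPM after SNI, against 24.2 and 24.4 CPM after sham (0.34 ± 0.06, adjusted p = 8.0e-06). Plxnb2, a receptor of class 4 semaphorins, had 46.8 and 48.2 CPM after SNI, against 41.4 and 35.7 CPM after sham (0.29 ± 0.05, adjusted p = 1.0e-05). The groups were apart in all 3, although the sham pools of Plxnb2 differed by more than its SNI pools. Plxnb3 had 25.3 and 24.2 CPM after SNI, against 19.1 and 22.4 CPM after sham (0.26 ± 0.07), and was lost without sham replicate 1 (adjusted p = 0.18). Plxnb1 had 28.1 and 24.8 CPM, against 22.5 and 22.4 CPM (0.25 ± 0.06), and was lost without SNI replicate 1 (adjusted p = 0.182). Plxna1 and Plxnd1 rose by 0.12 and 0.09 on the log2 scale, and Plxna1 was lost without sham replicate 1 or SNI replicate 2 (adjusted p up to 0.364) and Plxnd1 without sham replicate 1 (adjusted p = 0.0947). Plxna2, a second receptor of Sema6a, was the plexin that fell, with 106 and 111 CPM after SNI, against 122 and 125 CPM after sham (-0.19 ± 0.03, adjusted p = 4.2e-06). The neuropilins were not called in the mRNA, with log2 changes of 0.01 for Nrp1 and 0.03 for Nrp2.

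Promoter sequences of the genes that moved are shown because AP-1 sites bind factors such as Jun and Atf3, which injured sensory neurons are known to induce. The RefSeq promoters (GRCm38.p6, 250 bases before to 50 after the start) matched 60 of the 70 genes. The AP-1 letters TGANTCA, the CRE letters TGACGTCA and the E-box letters CANNTG were searched on both strands, and none of the 3 can lie whole within another. These genes had 76 promoters, of which 3 held AP-1 letters (3.95%), against 7.81% of all 32851 promoters, 1 held CRE letters (1.32%), against 1.79%, and 39 held E-box letters (51.3%), against 72.3%. The 3 promoters with AP-1 letters were those of Sema4c, which rose, and Sema4d and Sema6b, which were not called. Shown are Sema4c (chr1:36558332-36558631, minus strand), where the AP-1 match in capitals starts 22 bases before the gene's start, and Sema4f (chr6:82939720-82940019, minus strand), which rose, and Sema7a (chr9:57939862-57940161, plus strand), which fell, with no AP-1 match in these windows.
Sema4c: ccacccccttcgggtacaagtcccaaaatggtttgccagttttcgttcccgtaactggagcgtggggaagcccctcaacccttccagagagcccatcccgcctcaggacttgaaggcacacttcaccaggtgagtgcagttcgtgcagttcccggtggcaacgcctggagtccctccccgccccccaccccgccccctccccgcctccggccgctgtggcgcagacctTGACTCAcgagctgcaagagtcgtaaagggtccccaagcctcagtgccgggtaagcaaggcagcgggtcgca
Sema4f: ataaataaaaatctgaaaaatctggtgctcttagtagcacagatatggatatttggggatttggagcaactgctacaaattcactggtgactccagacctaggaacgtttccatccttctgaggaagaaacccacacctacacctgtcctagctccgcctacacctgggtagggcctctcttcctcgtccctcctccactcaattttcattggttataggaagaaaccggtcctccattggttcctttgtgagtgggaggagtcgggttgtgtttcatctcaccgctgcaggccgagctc
Sema7a: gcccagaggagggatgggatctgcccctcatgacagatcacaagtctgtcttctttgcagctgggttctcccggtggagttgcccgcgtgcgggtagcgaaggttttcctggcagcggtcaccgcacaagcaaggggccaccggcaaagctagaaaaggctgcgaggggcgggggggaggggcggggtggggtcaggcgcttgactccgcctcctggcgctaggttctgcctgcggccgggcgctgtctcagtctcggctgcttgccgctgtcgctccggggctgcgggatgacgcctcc

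The ephrins and Eph receptors changed in both directions. Efnb3 fell furthest of all the guidance genes, with 5.61 and 6.48 CPM in DRG after SNI, against 9.38 and 8.96 CPM after sham (-0.62 ± 0.12, adjusted p = 8.9e-05). Efnb3 is also the gene most enriched in the SC, where it stood at 265 and 269 CPM after SNI and 267 and 269 CPM after sham. The spinal cord markers in the ganglia also fell, and the part of spinal cord RNA in the Efnb3 values was not tested. Efnb1 rose (36.8 and 38.3 CPM after SNI, against 31.7 and 32.9 CPM after sham, 0.21 ± 0.05, adjusted p = 0.00073), and its DESeq2 adjusted p was 0.0812. Efnb2, a ligand known from arterial vessels, had 55.4 and 52.2 CPM after SNI, against 57.2 and 59.5 CPM after sham (-0.11 ± 0.04), and was lost without sham replicate 2 or SNI replicate 2 (adjusted p up to 0.263). Efna5 had 72.4 and 72.0 CPM, against 76.7 and 78.2 CPM (-0.10 ± 0.03), and was lost without sham replicate 2 or either SNI pool (adjusted p up to 0.131).

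Of 13 Eph receptors tested, 4 rose and 4 fell. Ephb6 had 32.7 and 33.3 CPM after SNI, against 27.7 and 27.6 CPM after sham (0.25 ± 0.05, adjusted p = 0.00022), and it was the 1 Eph receptor whose call held without each pool. Epha3, an ephrin-A receptor, had 3.74 and 3.99 CPM after SNI, against 2.76 and 2.56 CPM after sham (0.53 ± 0.17, adjusted p = 0.015), and its adjusted p reached 0.0907 without sham replicate 2 or SNI replicate 2. Ephb2 had 6.68 and 7.81 CPM after SNI, against 5.92 and 5.40 CPM after sham (0.34 ± 0.13), and was lost without either sham pool or SNI replicate 2 (adjusted p up to 0.261). Ephb4, an Eph receptor of veins, had 14.2 and 14.0 CPM, against 11.4 and 12.3 CPM (0.25 ± 0.09), and was lost without sham replicate 1 or either SNI pool (adjusted p up to 0.225). Epha6 had 8.97 and 8.30 CPM after SNI, against 12.4 and 10.7 CPM after sham (-0.42 ± 0.10, adjusted p = 0.0014), and was lost without sham replicate 1 (adjusted p = 0.0855). Ephb1 had 4.12 and 3.55 CPM after SNI, against 5.37 and 4.79 CPM after sham (-0.40 ± 0.15), and was lost without sham replicate 1 or SNI replicate 2 (adjusted p up to 0.264). Epha7 had 4.36 and 5.50 CPM, against 6.32 and 6.46 CPM (-0.39 ± 0.14), and was lost without either sham pool or SNI replicate 1 (adjusted p up to 0.374). Epha5 had 20.6 and 23.9 CPM, against 26.1 and 24.3 CPM (-0.20 ± 0.07), and was lost without sham replicate 1 or SNI replicate 1 (adjusted p up to 0.491). Although the SNI and sham pools did not overlap in any of these 8 receptors, 7 of the 8 calls were lost without at least 1 pool.

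Netrin 1, a secreted attractant and repellent, rose. Ntn1, on chromosome 11 (68209364 to 68400823), had 39.3 and 40.8 CPM after SNI, against 30.4 and 31.6 CPM after sham (0.37 ± 0.05, adjusted p = 1.6e-07). The membrane-anchored netrins went in opposite directions, since Ntng1 had 44.8 and 43.4 CPM after SNI, against 53.0 and 54.2 CPM after sham (-0.28 ± 0.04, adjusted p = 1.0e-06), while Ntng2 had 53.7 and 54.4 CPM, against 50.8 and 49.2 CPM (0.11 ± 0.04, adjusted p = 0.036). The mRNA call of Ntng2 was lost whichever of the 4 pools was left out (adjusted p up to 0.221). Of the netrin receptors Unc5b fell, with 14.4 and 14.3 CPM after SNI, against 18.7 and 17.5 CPM after sham (-0.33 ± 0.08, adjusted p = 0.00073), and its DESeq2 adjusted p was 0.058. Unc5a, Unc5c and Unc5d were not called.

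Of the Slits, secreted repellents, Slit1 rose and Slit2 fell, and of their receptors Robo1 and Robo2 fell. Slit1 rose to 77.8 and 80.4 CPM after SNI, against 70.8 and 66.4 CPM after sham (0.20 ± 0.04, adjusted p = 2.7e-05). Slit2 fell to 27.7 and 31.4 CPM after SNI, against 34.7 and 35.1 CPM after sham (-0.25 ± 0.06, adjusted p = 0.00046), and its adjusted p was 0.072 without SNI replicate 1. Robo2, on chromosome 16 (73891839 to 74411825), had 127 and 124 CPM after SNI, against 148 and 144 CPM after sham (-0.22 ± 0.03, adjusted p = 6.3e-08). Robo1 had 16.9 and 16.6 CPM after SNI, against 18.9 and 19.98 CPM after sham (-0.21 ± 0.07), and was lost without sham replicate 2 or either SNI pool (adjusted p up to 0.169). Robo4, the Robo of blood vessels, was not called in the mRNA (0.22), and 5 of 10 endothelial markers were called higher in the same comparison.

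**Figure D2:**
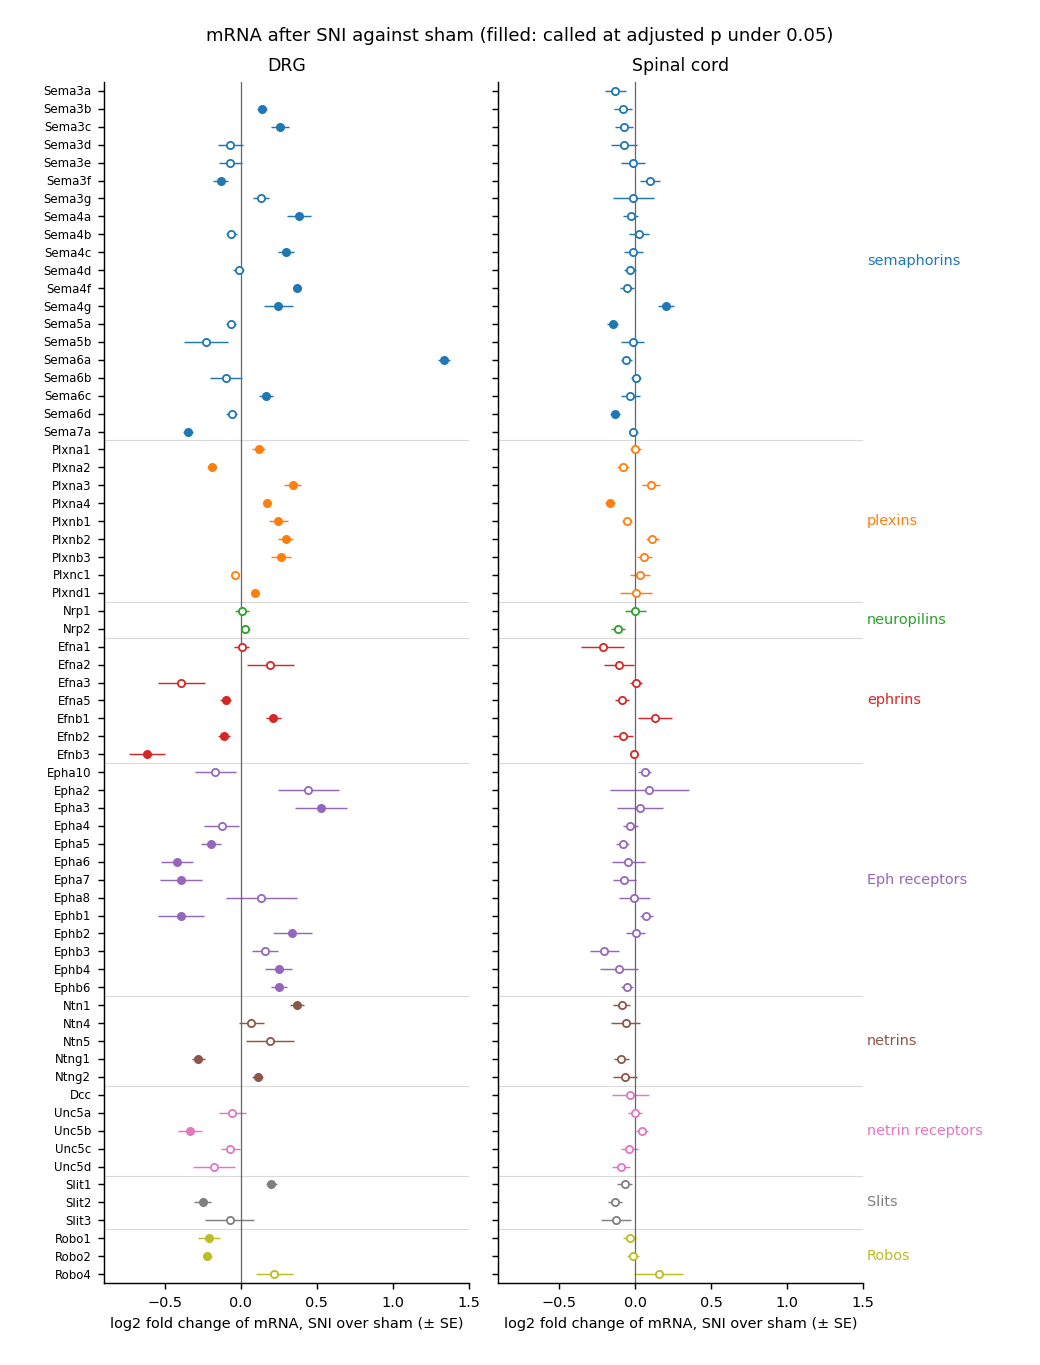
log2 fold change of mRNA after SNI over sham with its standard error in the DRG (left) and the spinal cord (right), for each guidance gene tested in either tissue, with filled points called at an adjusted p under 0.05. In the DRG 38 points are filled and Sema6a stands alone at 1.33, while 4 points are filled in the spinal cord, between -0.16 and 0.20.

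Footprints were examined next, to see whether the changes in mRNA appeared in what ribosomes read. Of 61 genes tested in DRG footprints, 22 were called, 13 higher and 9 lower, beside 16.7% of all 13038 genes, 8.37% higher and 8.31% lower. Of the 38 genes called in mRNA, 19 were called in footprints, 18 were tested and not called, and Efnb3 had too few footprint reads. Among the 19 called in both, 17 changed in the same direction, 10 higher and 7 lower. DESeq2 called 9, and the count was 14 without sham replicate 2 and 12 without SNI replicate 2, with 10 of the 22 calls kept without each pool.

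Sema7a fell further in footprints than in mRNA. Its footprints were 130 and 135 CPM after SNI, against 199 and 193 CPM after sham (-0.56 ± 0.03, adjusted p = 9.9e-30), and the call held in every alternative but the test against 1.5-fold. Plxna4 had 290 and 278 CPM of footprints after SNI, against 240 and 235 CPM after sham (0.26 ± 0.04, adjusted p = 2.1e-08), and Plxna3 had 50.8 and 48.6 CPM, against 40.8 and 38.6 CPM (0.33 ± 0.06, adjusted p = 1.7e-06). These receptors thus rose at the level of ribosome occupancy as in mRNA, and so did the ligands Sema3c and Sema4f. Sema3c had 64.2 and 66.9 CPM of footprints after SNI, against 48.3 and 52.1 CPM after sham (0.37 ± 0.05, adjusted p = 1.3e-08), and Sema4f had 130.6 and 128.3 CPM, against 108.8 and 109.1 CPM (0.25 ± 0.04, adjusted p = 8.3e-08). Sema3f fell to 43.0 and 40.2 CPM of footprints, against 51.4 and 51.4 CPM after sham (-0.32 ± 0.06, adjusted p = 2.7e-06). Slit2 fell to 65.0 and 65.5 CPM, against 78.5 and 78.7 CPM (-0.27 ± 0.05, adjusted p = 1.3e-05).

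A further 9 genes had footprints that changed in the direction of their mRNA but did not keep the footprint call without every pool or under DESeq2. Epha3 (0.60 ± 0.17), Plxnb3 (0.27 ± 0.06), Ntn1 (0.24 ± 0.07), Sema4c (0.23 ± 0.08) and Sema3b (0.09 ± 0.03) rose, and Unc5b (-0.38 ± 0.12), Epha6 (-0.24 ± 0.07), Ntng1 (-0.22 ± 0.06) and Plxna2 (-0.13 ± 0.04) fell. Plxnb3 kept its call without each pool and had a DESeq2 adjusted p of 0.0999. Sema3b and Sema4c were lost whichever pool was left out (adjusted p up to 0.453 and 0.205), Epha3 and Unc5b without sham replicate 2 or SNI replicate 2 (up to 0.292 and 0.238), and Ntn1 and Epha6 without sham replicate 2 or SNI replicate 1 (up to 0.0728 and 0.23). Ntng1 was lost without SNI replicate 2 (adjusted p = 0.127) and Plxna2 without either SNI pool (up to 0.121). Nrp1, Robo4 and Sema5b were called in footprints and not in mRNA. Nrp1 had 175 and 173 CPM of footprints after SNI, against 157 and 164 CPM after sham (0.12 ± 0.03, adjusted p = 0.0073), and Robo4 had 8.67 and 10.1 CPM, against 6.75 and 6.99 CPM (0.47 ± 0.14, adjusted p = 0.011). Sema5b had 8.59 and 9.46 CPM, against 15.1 and 10.3 CPM (-0.37 ± 0.13, adjusted p = 0.035). Nrp1 and Sema5b were lost without sham replicate 1 or either SNI pool (adjusted p up to 0.246 and 0.532), and Robo4 without sham replicate 2 or SNI replicate 2 (up to 0.341).

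**Figure D3:**
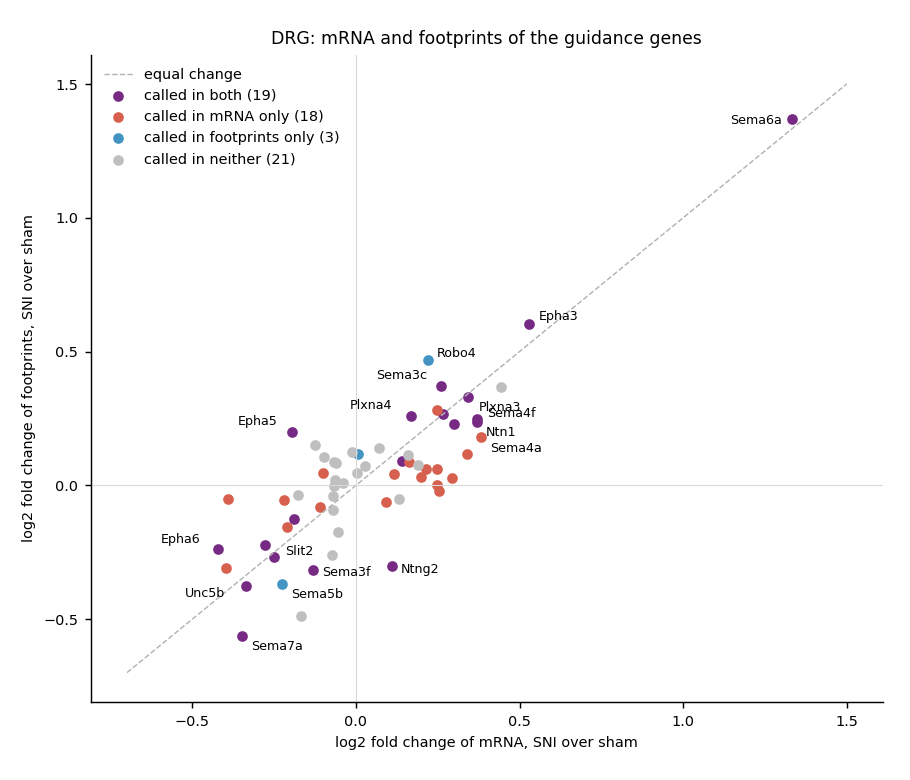
log2 fold change of footprints (y axis) against that of mRNA (x axis) in the DRG, SNI over sham, for the 61 guidance genes tested in both, coloured by where they were called; the dashed line marks equal change. Sema6a lies near the line at 1.33 and 1.37, Sema7a lies below it, and Ntng2 and Epha5 lie in quadrants of opposite change.

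Translational efficiency (TE) is the level of a gene's footprints relative to its mRNA, and a change in it was tested as a difference between the SNI effects on the 2 kinds of library. In the DRG 8 of 61 genes were called, 3 higher and 5 lower, beside 7.42% of all 12710 genes, 4.20% higher and 3.22% lower. With library sizes alone 2 were higher and 6 lower. The common biological coefficient of variation of the TE fit was 0.00988, again the lowest value the estimate can take. The DRG footprint libraries alone gave 0.0430, so the adjusted p of TE rest on a smaller spread than the footprints showed. Neither DESeq2 nor limma on the deposited TE values called a gene, nor did a coefficient of variation of 0.1 or a test against 1.5-fold, and the count was 4 without sham replicate 1, 4 without sham replicate 2 and 3 without SNI replicate 2. The calls of Ntng2 and Sema7a held without each pool.

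Ntng2, a netrin that binds the synaptic adhesion molecule Lrrc4, had a log2 TE of -0.09 and -0.18 after SNI, against 0.20 and 0.31 after sham (difference -0.41 ± 0.07, adjusted p = 3.0e-07). Its footprints fell to 50.3 and 47.9 CPM after SNI, against 58.3 and 61.1 CPM after sham (-0.30 ± 0.05, adjusted p = 5.6e-06), while its mRNA was called higher. Sema7a had a log2 TE of 0.58 and 0.62 after SNI, against 0.84 and 0.80 after sham (-0.22 ± 0.05, adjusted p = 0.00038), so that its mRNA and its TE were both lower. Epha5, a receptor of A-type ephrins, was the reverse of Ntng2, with a log2 TE of 0.75 and 0.59 after SNI, against 0.31 and 0.31 after sham (0.35 ± 0.10, adjusted p = 0.0070). Its mRNA was called lower and its footprints higher (0.20 ± 0.07, adjusted p = 0.030), but the footprint call was lost without sham replicate 2 or SNI replicate 2 (adjusted p up to 0.538), and the TE call was lost without either sham pool or SNI replicate 1 (adjusted p up to 0.131). Robo2 had a log2 TE of 0.97 and 1.02 after SNI, against 0.80 and 0.85 after sham (0.16 ± 0.04), and was lost without sham replicate 1 or SNI replicate 2 (adjusted p up to 0.159). Sema5a had 0.57 and 0.53, against 0.38 and 0.40 (0.16 ± 0.05), and was lost whichever pool was left out (up to 0.277). The genes with a lower TE beside Ntng2 and Sema7a were Plxnb2, Slit1 and Plxnd1. Plxnb2 had 0.56 and 0.49 after SNI, against 0.67 and 0.92 after sham (-0.29 ± 0.07), and Slit1 had 2.74 and 2.69, against 2.85 and 2.93 (-0.17 ± 0.05), and both were lost without sham replicate 2 or SNI replicate 2 (up to 0.435 and 0.276). Plxnd1 had 0.18 and 0.12, against 0.31 and 0.29 (-0.16 ± 0.05), and was lost without either sham pool or SNI replicate 2 (up to 0.314).

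**Figure D4:**
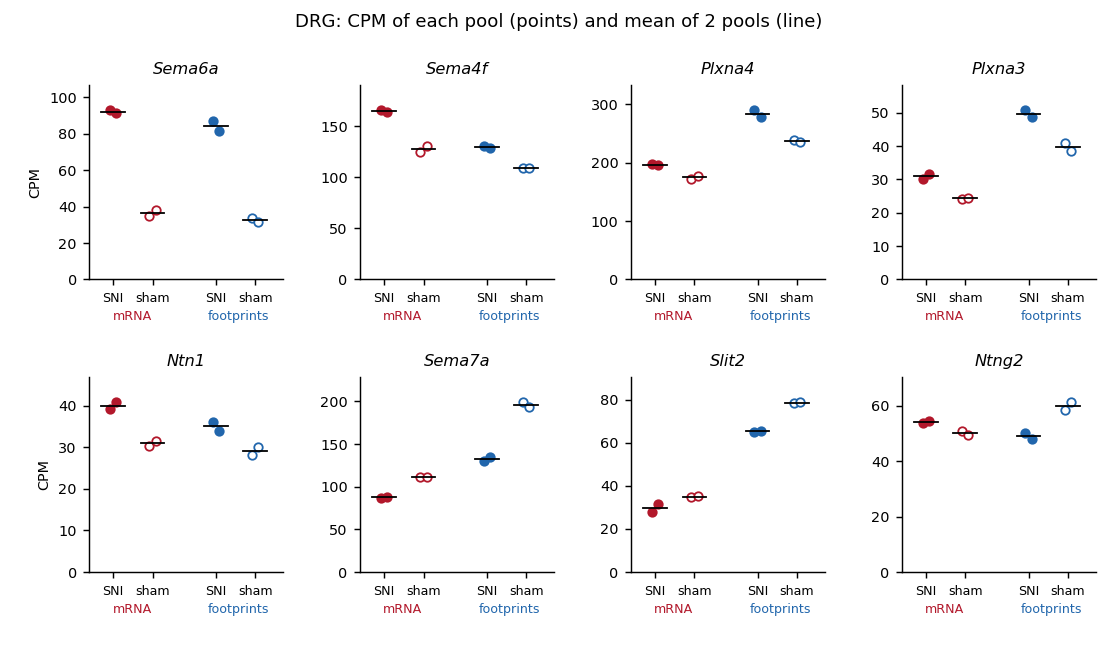
CPM of each DRG pool (points) and the mean of 2 pools (line) for 8 guidance genes, with SNI (filled) left of sham (open), and mRNA in red and footprints in blue on axes that start at 0. Both SNI pools lie above both sham pools in mRNA and in footprints for the genes of the upper row and Ntn1 and below them for Sema7a and Slit2, and Ntng2 is higher in mRNA and lower in footprints after SNI.

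Levels of TE were compared within the sham pools. Slit1 had the highest log2 TE in sham DRG, at 2.85 and 2.93, followed by Slit3 at 2.39 and 2.36. Efnb3 had the lowest, at -2.26 and -2.32, on 14 and 31 footprint reads. In sham SC, Slit1 was at 2.07 and 2.15, Slit3 at 0.61 and 0.60 and Efnb3 at -1.29 and -1.40. By the authors' account footprints lie mostly in coding sequence, and mRNA reads lie in the untranslated regions as well. A ranking of different genes by TE may therefore also reflect the coding share of their exons, which was not tested. Between the tissues, 33 of 65 genes were called, 20 higher and 13 lower in the DRG, beside 43.0% of all 12504 genes, 20.3% higher and 22.6% lower. The split was 17 higher and 6 lower with no read minimum, 16 and 8 with the minimum in every library, and 16 and 6 without DRG sham replicate 2. The split of all genes moved as well, to 2368 higher and 1839 lower with no read minimum. It was 1849 and 1881 with the minimum in every library, and 1819 and 1905 without DRG sham replicate 2. All 3 Slits had a higher TE in the DRG, by 1.79 ± 0.18 for Slit3 (adjusted p = 1.6e-19), 0.79 ± 0.06 for Slit1 (adjusted p = 6.5e-37) and 0.23 ± 0.07 for Slit2 (adjusted p = 0.0064). Of the 9 plexins, 7 were higher in the DRG, with Plxnd1 (0.63 ± 0.15, adjusted p = 0.00014) and Plxna2 (0.58 ± 0.05, adjusted p = 1.5e-23) the furthest, and Plxnb1 (-0.59 ± 0.09, adjusted p = 8.6e-09) and Plxnc1 (-0.32 ± 0.09, adjusted p = 0.0022) were lower. Efnb3 (-0.96 ± 0.22, adjusted p = 6.6e-05) and Sema6b (-0.86 ± 0.17, adjusted p = 2.4e-06), both rich in SC mRNA, had the lowest TE in the DRG relative to the SC. Both passed the minimum of footprint reads through the SC alone, so these values rest on few DRG reads. Efnb3 had 14 and 31 footprint reads in sham DRG, against 788 and 1089 in sham SC, and Sema6b 42 and 58, against 571 and 901. Plxnd1 passed it through the DRG alone, with 44 and 81 footprint reads in sham SC. Sema6b had a log2 TE of -0.73 and -1.65 in sham DRG, against -0.47 and -0.38 in sham SC, and was not called without DRG sham replicate 2 (adjusted p = 0.391). Plxnc1 was not called without SC sham replicate 1 (adjusted p = 0.197), and the DESeq2 adjusted p of Slit2 was 0.288. The calls of 17 of the 33 genes held without each pool, and DESeq2 called 15. With a coefficient of variation of 0.1 set for all genes 4 were called, and 2 in a test against 1.5-fold. The common biological coefficient of variation of this fit was 0.0153, while the sham DRG footprint pools differed by a mean chi-square per gene of 3.30. The adjusted p of these TE differences may thus rest on too small a spread.

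In the spinal cord few guidance genes were called after SNI. In mRNA 4 of 66 were called, 1 higher and 3 lower, beside 4.05% of all 14723 genes, 2.08% higher and 1.97% lower. Sema4g had 47.2 and 44.9 CPM in SC after SNI, against 39.4 and 40.7 CPM after sham (0.20 ± 0.05, adjusted p = 0.0091). Plxna4 had 107 and 110 CPM after SNI, against 120 and 124 CPM after sham (-0.16 ± 0.03, adjusted p = 0.0014). Sema5a, a transmembrane semaphorin with thrombospondin repeats, had 83.4 and 83.8 CPM after SNI, against 95.4 and 89.6 CPM after sham (-0.15 ± 0.04, adjusted p = 0.011), and Sema6d had 106 and 106 CPM, against 114 and 119 CPM (-0.13 ± 0.03, adjusted p = 0.015). The groups did not overlap in these 4 genes, but none of them was called by DESeq2 or kept its call without each pool, and the count was 2 without sham replicate 1, 1 without SNI replicate 1 and 2 without SNI replicate 2.

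In SC footprints the guidance genes together took 0.3484% and 0.3481% of the reads after SNI, against 0.3656% and 0.3629% after sham. Their median log2 change was -0.085, against -0.002 for all genes, over 64 guidance genes tested. The single call was Plxnb1, with 133 and 142 CPM after SNI, against 157 and 155 CPM after sham (-0.18 ± 0.04, adjusted p = 0.025), beside 2.25% of all 12018 genes. It was not called without either sham pool or without SNI replicate 1, where its adjusted p reached 0.299, and 2 genes were called without SNI replicate 2. In SC TE none of 64 genes was called by edgeR, DESeq2 or limma, beside 0.253% of all 11865 genes called by edgeR. The lowest adjusted p by edgeR was 0.603. Sema6a, the gene with the largest response in the ganglion, had 79.6 and 81.6 CPM in SC mRNA after SNI, against 84.3 and 83.2 CPM after sham, and was not called (-0.06, adjusted p = 0.468).

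Whether the response differed between the tissues was tested as the interaction of tissue and surgery over the 8 mRNA libraries. It did for 18 of 69 genes, 13 with a more positive and 5 with a more negative change in the DRG, beside 13.6% of all 16716 genes, 6.34% more positive and 7.24% more negative. Sema6a differed most (difference of log2 fold changes 1.40 ± 0.06, adjusted p = 8.4e-25), followed by Efnb3 (-0.60 ± 0.11, adjusted p = 4.8e-05), Ntn1 (0.46 ± 0.08, adjusted p = 1.05e-05) and Ephb1 (-0.46 ± 0.15, adjusted p = 0.028). Plxna4 was called in opposite directions in DRG and SC mRNA, and its difference was 0.34 ± 0.04 (adjusted p = 1.3e-08). The calls of 12 of the 18 held without each pool, and DESeq2 called 11.

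The change in the DRG was also set beside the tissue ratio, since the spinal cord markers fell in the SNI ganglia. Of the 23 genes that rose in DRG mRNA, 10 were higher in sham DRG than in sham SC and 11 lower. Of the 15 that fell, 7 were higher and 8 lower. The 12 genes tested in both that were more than 4-fold higher in the SC had a median log2 change of -0.15 in the DRG (2 rose, 3 fell), and the other 53 had a median of 0.09 (21 rose, 12 fell). The 2 that rose were Plxnb1 and Ephb2, and the 3 that fell were Efnb3, Ephb1 and Unc5b. The oligodendrocyte and spinal cord neuron markers fell, and the part of spinal cord RNA in the values of these genes was not tested. Sema6a, which rose, was 1.13 lower on the log2 scale in sham DRG than in sham SC, and the part of spinal cord RNA in its values was not tested either.

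**Figure D5:**
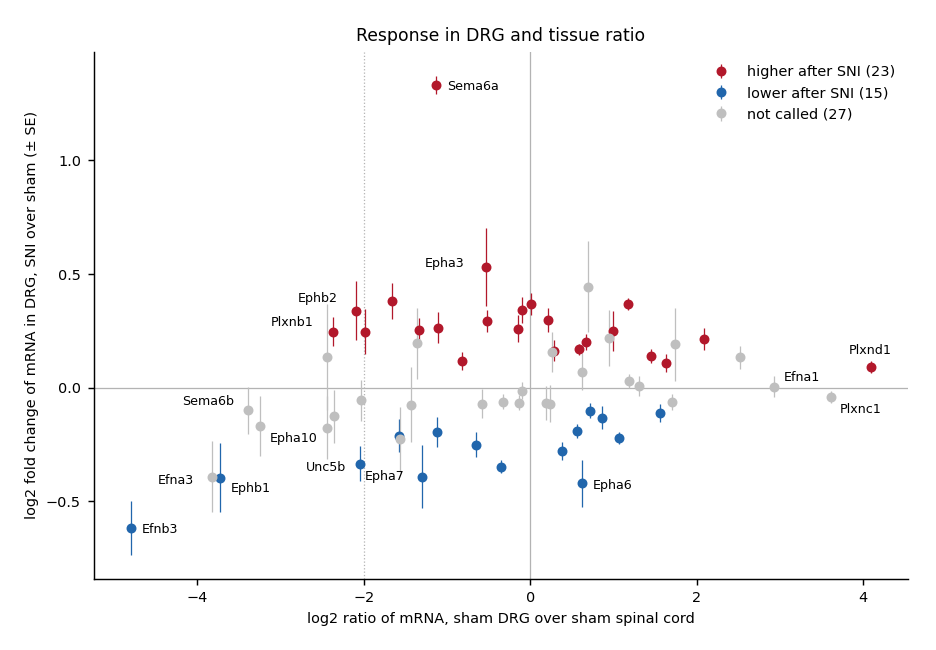
log2 fold change of DRG mRNA after SNI over sham with its standard error (y axis) against the log2 ratio of mRNA in sham DRG over sham spinal cord (x axis), for the 65 guidance genes tested in both; the dotted line marks a 4-fold higher level in the spinal cord. Genes that rose (red) and fell (blue) lie on both sides of equal levels. Left of the dotted line Efnb3, Ephb1 and Unc5b are the 3 that fell, and Plxnb1 and Ephb2 are the 2 that rose.

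Other genes of guidance pathways, 96 in all, were taken from lists of co-receptors and modulators, of receptors and ligands for myelin inhibitors, and of intracellular signaling genes. In DRG mRNA 32 of 94 tested rose and 24 fell, with a median log2 change of 0.02, beside 15.9% higher and 17.0% lower of all genes. Among the 25 co-receptors and modulators, 10 rose and 8 fell. Draxin, a secreted protein that binds netrin 1 and Dcc, had 8.20 and 9.28 CPM in DRG after SNI, against 3.41 and 3.56 CPM after sham (1.32 ± 0.14, adjusted p = 1.5e-09). Flrt3, a ligand of Unc5 receptors, had 46.9 and 48.6 CPM after SNI, against 20.8 and 21.2 CPM after sham (1.19 ± 0.05, adjusted p = 5.1e-20). Chl1, an L1 family adhesion molecule that binds neuropilins, had 125.8 and 127.6 CPM after SNI, against 75.0 and 75.7 CPM after sham (0.75 ± 0.03, adjusted p = 8.4e-21). The footprints of all 3 rose as well, by 1.53 ± 0.23, 1.37 ± 0.06 and 0.83 ± 0.04 on the log2 scale. Cntn1, an adhesion molecule of axons, fell to 384 and 389 CPM after SNI, against 496 and 496 CPM after sham (-0.36 ± 0.02, adjusted p = 4.0e-18).

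Of 60 intracellular signaling genes tested, 21 rose and 12 fell in DRG mRNA, the second count near the 17.0% of all genes. Rnd1, which binds plexins, had 5.88 and 6.70 CPM after SNI, against 2.91 and 3.56 CPM after sham (0.95 ± 0.15, adjusted p = 6.1e-06), and was also called in SC mRNA (0.18 ± 0.05, adjusted p = 0.013). Rock1, a kinase that acts on the cytoskeleton, had 50.7 and 50.2 CPM after SNI, against 65.7 and 62.1 CPM after sham (-0.34 ± 0.04, adjusted p = 5.8e-09), and its TE was higher (0.48 ± 0.09, adjusted p = 5.3e-06). Of 9 genes for myelin inhibitors tested, 1 rose and 4 fell, among them Omg, a ligand of the Nogo receptor made by oligodendrocytes and neurons, which had 16.0 and 16.4 CPM after SNI, against 24.6 and 26.4 CPM after sham (-0.66 ± 0.07, adjusted p = 6.9e-10). In SC mRNA 2 of 94 pathway genes rose and 5 fell, beside 2.08% higher and 1.97% lower of all genes.

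Reads were sequenced without strand, so that reads in exons shared with another gene cannot be assigned by strand. How the counting treated such reads is not stated here. Of the 70 genes, 18 overlap another annotated gene in GENCODE M21, 14 of them on the opposite strand. Among the genes described above these are Sema4a, Sema4c, Plxna1, Plxna4, Plxnb1, Plxnc1, Epha6, Ephb1, Ephb4, Efna3, Nrp1, Ntng2 and Unc5a. Their counts may include reads of the overlapping gene or lack reads of their own.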

How the data were processed

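The submitters' processing notes name Bowtie 1.1.2, used by the authors to discard rRNA and tRNA, STAR 2.5.2b for alignment, HTSeq for counting, and the build GRCm38.p5; the HTSeq version is not given in the sources used here. The deposited counts are whole reads per gene, and the deposited TE is a ratio the authors made from footprint and mRNA RPKM of the same lysate. The exonic length of a gene is the deposited value. The deposited readme gave the match of columns to samples, and the deposited RPKM were not used.

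Counts were tested with edgeR 4.0.16 in R 4.3.3 by quasi-likelihood tests with TMM factors within each assay. Genes with fewer than 128 reads in total in an assay's libraries were left out of a fit. Calls were at a Benjamini-Hochberg adjusted p under 0.05 over all genes tested. TE was tested with a term for each lysate, and log2 TE per lysate had 0.5 reads added. CPM were scaled within the 4 libraries of a tissue and assay, and RPKM used the deposited exonic length and factors over the 8 libraries of an assay. Fold changes are SNI over sham, or DRG over SC. The tests were checked on simulated counts with the same coefficient of variation in every library. A larger spread in footprints than in mRNA was therefore not covered by that check. Alternatives were DESeq2 1.42.0, limma 3.58.1 on the deposited TE, library sizes alone, no read minimum, the minimum in every library, protein-coding genes only, a fixed coefficient of variation, a test against 1.5-fold, a replicate block, no lysate terms and each pool left out. Tables and figures were made with Python 3.11.15, pandas 2.3.3, numpy 2.4.6 and matplotlib 3.10.9.

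The members, lists and tests were chosen with earlier results of these data known. Full values were for genes called, in order of absolute change up to 15 in each direction, and for the highest gene of each family; pathway genes were named up to 6 a direction. Efnb1 was added after its values were seen. Replicates are separate pools of mice. The 2 pools of a group differed by a mean chi-square per gene of 1.06 to 3.30, where counting noise alone gives 1. DRG mRNA was the lowest and DRG footprints the highest, at 3.30 after sham and 2.64 after SNI. Marker lists of cell types were summed.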

Additional observations from a re-analysis of the deposited data

Results flagged for a closer look

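The mRNA response to SNI differed between DRG and spinal cord, by the test of the tissue and surgery interaction, for 18 guidance genes. The difference of log2 fold changes, DRG minus spinal cord, was positive for Sema6a (1.40), Ntn1 (0.46), Sema4f (0.43), Sema4a (0.42), Ephb3 (0.37), Sema3c (0.34), Plxna4 (0.34), Sema4c (0.32), Ephb6 (0.31), Plxnb1 (0.31), Slit1 (0.28), Plxna3 (0.25) and Sema3b (0.23). It was negative for Efnb3 (-0.60), Ephb1 (-0.46), Unc5b (-0.37), Sema7a (-0.33) and Robo2 (-0.20). Plxnb1 was not called without DRG SNI replicate 1 (adjusted p = 0.107), Sema4c without DRG SNI replicate 1 or SC SNI replicate 2 (up to 0.0872), and Sema3b without DRG sham replicate 1, SC sham replicate 2 or SC SNI replicate 2 (up to 0.155). Ephb1 was not called without DRG sham replicate 1, DRG SNI replicate 2 or SC sham replicate 1 (up to 0.239). Ephb3 and Plxna3 were each not called without any 1 of 6 of the 8 pools (up to 0.236 and 0.128), and Ephb3 was called in neither tissue alone.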

How the results depend on the processing

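The number of guidance genes called differed between tools and settings, and no called gene turned its direction under any alternative. DESeq2 called 15 in DRG mRNA, 9 in DRG footprints, 0 in DRG TE, 0 in SC mRNA, 0 in SC footprints, 15 in TE between the tissues and 11 in the response difference. A coefficient of variation fixed at 0.1 gave 2, 2, 0, 0, 0, 4 and 1 in the same order, and the test against 1.5-fold gave 1, 1, 0, 0, 0, 2 and 1. Limma on the deposited TE gave 0 in DRG. In SC footprints, where 1 gene was called, no filter gave 2. Leaving out 1 pool at a time gave 27 to 30 genes in DRG mRNA, 12 to 18 in DRG footprints, 3 to 6 in DRG TE, 1 to 3 in SC mRNA, 0 to 2 in SC footprints, 0 in SC TE, 58 to 63 in mRNA and 22 to 28 in TE between the tissues, and 14 to 18 in the response difference.

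The replicate numbers share no stated batch or animal, and the deviations of same-numbered SNI and sham pools correlated at 0.04 in DRG mRNA, 0.21 in DRG footprints, 0.00 in SC mRNA and -0.03 in SC footprints over genes. With the replicate number as a block the counts were 39, 24, 10, 5, 2 and 0 for mRNA, footprints and TE in DRG and then SC, and 65, 33 and 18 for mRNA, TE and response between the tissues. Genes with few reads, such as Dcc and Sema3a, could not be tested within the DRG at this depth. The alternatives not named here moved no total count of guidance genes called by more than 1.5 times, although counts in 1 direction moved further (9 lower in DRG mRNA with library sizes alone, where 15 were lower with TMM factors).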
